A study of Mus musculus with 10 samples.

Results

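CXC chemokines are small secreted proteins that draw leukocytes to a tissue by binding G protein-coupled receptors on them. Cxcl1, Cxcl2 and Cxcl3 are ligands of Cxcr2 and attract neutrophils. Cxcl9 and Cxcl10 are interferon-induced ligands of Cxcr3 and attract T cells. Cxcl12 binds Cxcr4 and guides migrating cells in the developing brain, Cxcl13 binds Cxcr5 on B cells, Cxcl16 is made as a membrane protein and binds Cxcr6, and Pf4 is stored in platelets and is also made by macrophages. Microglia, the resident macrophages of the brain, are known to release several of them when activated.

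The probe sets of 10 CXC chemokine genes, found by their symbols, were examined on microarrays of primary mouse microglia, among 18976 genes with a probe set row of their own. Mixed glial cultures, 14 days old and made from newborn wild-type C57BL/6 pups, were shaken to free the microglia, which were then kept without serum. Of the 10 arrays, 5 were of cells given 5 ng/ml recombinant human TGFb1 for 24 h and 5 of cells without an added factor. The value used is the authors' pooled median intensity of each row, on a linear scale. Its header does not say over which arrays it was taken, so it is read as one value for the whole series, with no SD or n. The comparison of TGFb1-treated with untreated cells was not analysed here, since the columns of single arrays could not be tied to samples by name and the authors' own comparison was not used. The pooled median therefore says nothing of how any gene responded to TGFb1. If taken over treated and untreated arrays together, it need not be the level, or give the order of genes, in either.

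Of the 10 genes, 9 had one row of their own each, and Cxcl16 had none. Both of its rows, probe sets 10387890 and 10377826, also name Zmynd15, a zinc finger gene, so they are given apart below. Among the 9 genes with a row of their own, the pooled intensities of Cxcl14, Pf4 and Cxcl10 were highest in the cultured microglia. That of Cxcl2 was also above weak signal, those of Cxcl1, Cxcl9 and Cxcl3 lay close to it, and those of Cxcl13 and Cxcl12 were lower. The leading shared Cxcl16 row was higher than all 9. As a scale for weak signal, the 95th percentile of 373 olfactory receptor genes, which microglia are not expected to use, lay at an authors' median intensity of 11.5. Cxcl2, at 41.7, was little above the 99th percentile of these genes, 37.7. The level serves as a yardstick only, since 19 of the olfactory receptor genes exceed it by construction and the highest of them was at 166. Of the 9 chemokine genes 5 were above it and 4 were not, and of all 18976 genes 56.5% were above it. Against a lower level of 6.75, the 95th percentile of 168 vomeronasal receptor genes, 8 of the 9 were above, with Cxcl3, Cxcl9 and Cxcl13 added. Most genes of the array exceed that lower level too, since Gp9, at 6.74, lay above only 27.9% of all genes. The median of the 9 was 12.7, against 15.8 for all genes. It was 27.2 without the genes in the lowest quartile, where the median gene was at 35.0. Over all 11 rows, with both shared Cxcl16 rows included, the median was 41.7. That is above 15.8, but the median of all genes was not taken with shared rows, so the 2 are not alike. The intensity of a probe set depends on its probes as well as on RNA, so the order that follows is one of intensities and not of RNA amounts.

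In the RefSeq order of protein-coding genes of GRCm38.p6, Pf4, Cxcl3, Cxcl15, Cxcl1 and Cxcl2 follow one another, so that Cxcl15 separates Cxcl3 from Cxcl1. Their promoters are shown because Cxcl1, Cxcl2 and Cxcl3 carry one identical run of 11 bases at an NF-kappaB match. RefSeq gives a promoter window of 300 bases, from 250 before to 50 after the annotated start, for 9 of the 10 genes. The windows below are 80 bases each, on the plus strand of GRCm38.p6, at chr5:90891154-90891233 for Cxcl1, chr5:90903782-90903861 for Cxcl2 and chr5:90786008-90786087 for Cxcl3. Capitals mark matches to the NF-kappaB consensus, which overlap on both strands in each.
Cxcl1: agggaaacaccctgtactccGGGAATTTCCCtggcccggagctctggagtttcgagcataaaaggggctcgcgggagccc
Cxcl2: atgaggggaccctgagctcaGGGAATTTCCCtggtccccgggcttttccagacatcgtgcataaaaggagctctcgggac
Cxcl3: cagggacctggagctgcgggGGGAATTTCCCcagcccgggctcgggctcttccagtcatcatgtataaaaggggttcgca

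The run GGGAATTTCCC was found in only 14 of 32851 RefSeq promoter windows on either strand, 0.0426% of them. It was chosen because these 3 promoters share it, so their presence among the 14 is no finding. Counted from the annotated start, with -1 as the base before it, the run began at -71 in Cxcl1, at -97 in Cxcl2 and at -73 in Cxcl3. Any match to the NF-kappaB consensus was present in 8.46% of all windows and in those of 4 of the 9 chemokine genes. The fourth was Cxcl10.

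The 250 bases before the starts of Cxcl10 and Cxcl9 are shown, since the pair share a receptor and interferon as an inducer. They lie on the minus strand of GRCm38.p6, at chr5:92348890-92349139 for Cxcl10 and chr5:92328080-92328329 for Cxcl9. Capitals mark the NF-kappaB consensus, the GAS element TTCNNNGAA, and the IRF core, which is GAAA followed by any 2 bases and GAAA again, searched on both strands.
Cxcl10: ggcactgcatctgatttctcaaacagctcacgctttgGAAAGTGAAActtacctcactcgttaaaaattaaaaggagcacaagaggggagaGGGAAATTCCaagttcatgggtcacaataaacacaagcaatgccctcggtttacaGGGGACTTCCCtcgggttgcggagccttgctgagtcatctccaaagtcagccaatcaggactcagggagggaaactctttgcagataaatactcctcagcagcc
Cxcl9: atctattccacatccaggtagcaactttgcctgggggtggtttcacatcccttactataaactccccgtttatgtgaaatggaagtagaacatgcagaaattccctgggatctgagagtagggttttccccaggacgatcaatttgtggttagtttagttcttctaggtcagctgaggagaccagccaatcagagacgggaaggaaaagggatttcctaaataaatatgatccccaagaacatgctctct

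In the Cxcl10 window the IRF core began at -213 from the start, and NF-kappaB matches began at -159, -104 and -103, the last pair of which overlap. The IRF core was found in 3.44% of all windows and, of the chemokine genes, in those of Cxcl10 and Cxcl14. The GAS element was found in 8.30% of all windows and in that of Cxcl14 alone of the 9. No match to these motifs was found in the window of Cxcl9, which says only that these letters are not in it. A match is a description of letters, and binding was not measured.

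**Figure D1:**
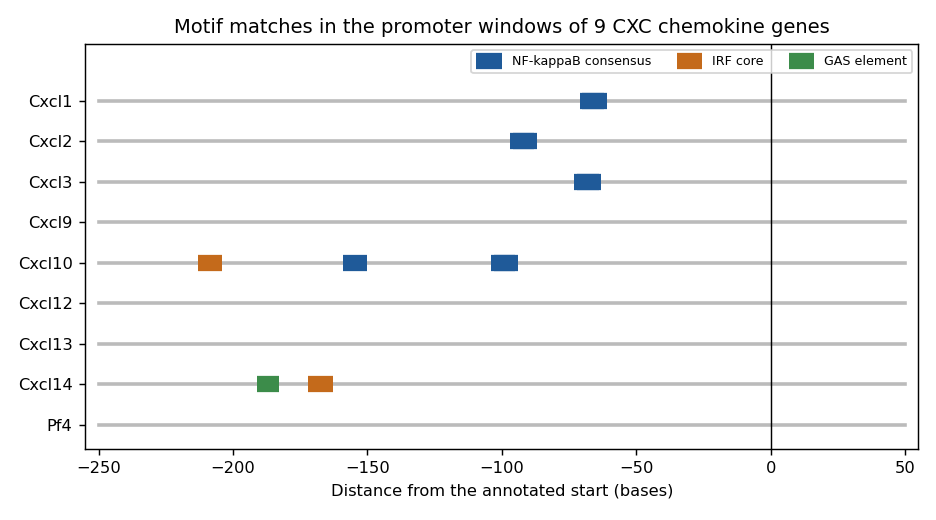
Matches to 3 motifs in the promoter windows of 9 CXC chemokine genes, plotted by distance in bases from the annotated start at 0, with grey lines for the windows searched and coloured blocks for matches. Cxcl1, Cxcl2, Cxcl3 and Cxcl10 hold NF-kappaB matches, Cxcl10 and Cxcl14 the IRF core, and the windows of Cxcl9, Cxcl12, Cxcl13 and Pf4 hold none of the 3.

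Among the neutrophil attractants, Cxcl2 (probe set 10523156) had a pooled median intensity of 41.7, above that of 65.5% of all genes. Cxcl1 (probe set 10523151) was at 12.7 and Cxcl3 (probe set 10523138) at 10.7. The Cxcl2 intensity was 3.62 times the weak-signal level, while those of Cxcl1 and Cxcl3 were 1.10 and 0.930 times that level, too near it for a fold between the genes. Cxcl2 and Cxcl3 are close relatives, and 184 stretches of 25 bases, the length of an Affymetrix probe, occurred in GENCODE M21 transcripts of both. They made up 8.72% of the 2109 distinct stretches of Cxcl2, and 6.40% of the 3516 of Cxcl3 occurred in at least one other gene. Cxcl1 shared none with either of them. The probe sequences were not used here, so how far either signal includes the other's RNA was not tested.

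Of the interferon-induced pair, Cxcl10 (probe set 10531415) had a pooled median intensity of 95.1, above 79.4% of all genes and 8.25 times the weak-signal level. Cxcl9 (probe set 10531407) was at 11.4, just under that level, so no fold between the pair is given. Cxcl9 and Cxcl10 are separated in the gene order by Art3 alone among protein-coding genes. Only 2 of 2293 stretches of 25 bases in Cxcl10 transcripts occurred in another gene.

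Cxcl14 (probe set 10409579), a chemokine made by many epithelia, had the highest intensity of the 9 chemokine genes with a row of their own, at 102.9. Pf4 (probe set 10523134) was close to it at 96.5, and these values lay above 80.8% of all genes for Cxcl14 and 79.6% for Pf4. Cxcl14 was 8.92 times the weak-signal level and Pf4 8.37 times. None of the 25-base stretches in transcripts of Cxcl14 or of Pf4 occurred in another gene. Cxcl14, Pf4 and Cxcl10 thus lay within a narrow range, and without an error for the pooled medians their order was not tested.

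Cxcl13 (probe set 10523359), the B cell attractant, was at 8.21, below the weak-signal level, and above 34.1% of all genes. Cxcl12 (probe set 10541075) had the lowest intensity of the 9, at 4.79, above only 16.6% of all genes and near the median of 3.84 of the olfactory receptor genes.

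The row that leads for Cxcl16, probe set 10387890, had a pooled median intensity of 834, above 97.9% of all genes. The other, probe set 10377826, was at 49.4, so that the rows differed by 16.9 times. In the RefSeq annotation of GRCm38.p6 the Cxcl16 and Zmynd15 genes overlap by 552 bases, and in GENCODE M21 they lie on opposite strands. Of the 4 accessions cited by the leading row, 2 were placed with Cxcl16, 1 with Zmynd15 and 1 with neither. Of the 10 cited by the other row, 2 were placed with Cxcl16, 4 with Zmynd15 and 4 with neither. No value can be given for Cxcl16 alone.

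**Figure D2:**
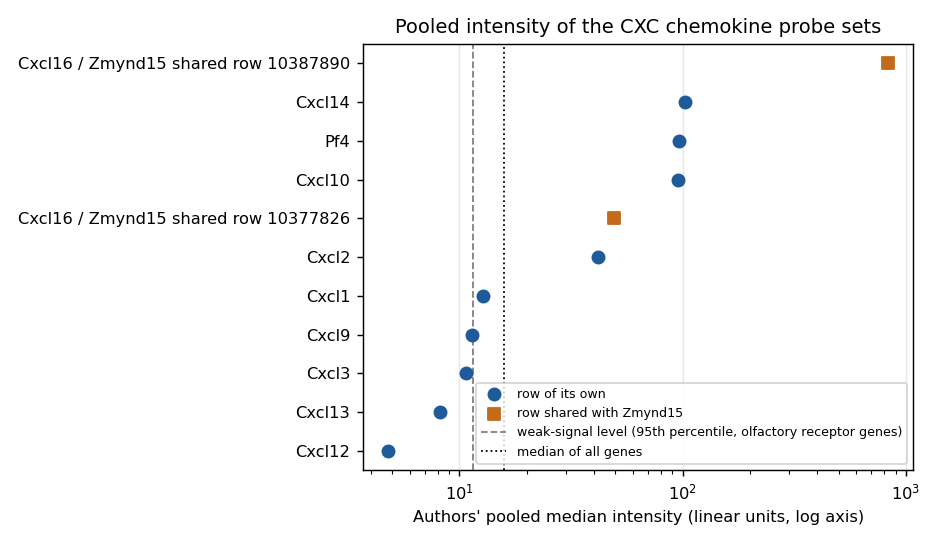
The authors' pooled median intensity, in linear units on a log axis, of every probe set row of the 10 CXC chemokine genes, with circles for rows of one gene and squares for rows shared with Zmynd15. Of the 9 genes with a row of their own, Cxcl14, Pf4 and Cxcl10 lie near 100, Cxcl2 at 41.7 and the other 5 at or below 12.7. The shared rows lie at 834 and 49.4. A dashed line marks the weak-signal level of 11.5 and a dotted line the median gene at 15.8.

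Of other CXC ligands, 1 of 5 was above the weak-signal level, Cxcl17 at 16.1, while Cxcl5, which also attracts neutrophils, was at 4.73 and Ppbp, a platelet chemokine, at 3.93. Among receptors of CXC chemokines 3 of 10 with a row of their own were above it. Lrp1, a large endocytic receptor that binds Pf4, was at 2097, Cxcr4 at 345 and Cxcr3 at 23.3. Cxcr2, the receptor of Cxcl1, Cxcl2 and Cxcl3, was at 2.90, Cxcr5 at 3.03 and Cxcr6 at 4.28. In the CC, CX3C and XC families, 11 of 18 ligands with their own row were above the level, against 56.5% of all genes. Their median was 15.6 against 12.7 for the CXC chemokines, and the highest was Ccl3 at 2567.

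Most listed genes of the interferon and NF-kappaB pathways, which induce several CXC chemokines, were above the weak-signal level. Of all 18976 genes, 56.5% were above it. Of 18 interferon pathway genes 15 were above the weak-signal level, with a median of 190, among them Ifngr2 at 1136 and Irf1 at 108.0, whereas the interferon genes Ifnb1 and Ifng were at 6.00 and 9.05. Of 24 NF-kappaB pathway genes 22 were above it, with a median of 101, among them Myd88 at 466 and Rela at 411, whereas Il1b was at 5.09 and Il1r1 at 2.71. Of 8 factors that control decay of chemokine mRNA 7 were above it, such as Zfp36l2 at 509 and Zfp36 at 145. Of 11 proteases that cut or shed chemokines 8 were above it, including Adam17 at 586 and Adam10, which sheds Cxcl16, at 233, while Dpp4, which trims Cxcl10 and Cxcl12, was at 5.20.

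Markers of the labelled cell type were present. All 9 microglia markers listed were above the weak-signal level, with a median of 788 and a range of 40.4 for P2ry12 to 1956 for Trem2. For scale in this and the counts that follow, 56.5% of all 18976 genes were above it. Of 7 border macrophage and monocyte markers 3 were above it, Ms4a7 at 2052, Mrc1 at 156 and Cbr2 at 20.2. Lyve1, Cd163 and Ccr2 were not, at 10.6, 5.84 and 3.23. Ms4a7 was higher than all 9 microglia markers, and Mrc1 was higher than P2ry12, Aif1 at 72.2 and Tmem119 at 94.1. Astrocyte, oligodendrocyte lineage, and fibroblast and pericyte markers were above the weak-signal level in 2 of 7 cases each. Their medians were 7.85, 7.40 and 10.6. The astrocyte markers above it were Aldh1l1 at 28.6 and Gfap at 12.1. Those of the oligodendrocyte lineage were Cspg4 at 58.0 and Mbp at 56.7, both higher than P2ry12. Those of fibroblasts and pericytes were Col3a1 at 18.9 and Col1a1 at 18.8. Endothelial markers were above it in 1 of 5 cases, neuron markers in 0 of 3, and neutrophil and platelet markers in 1 of 5. The platelet markers Itga2b and Gp9 were at 10.8 and 6.74, both below the weak-signal level, with Itga2b close to that level. Platelets also hold Pf4, and whether they added to the Pf4 signal was not tested. In a bulk culture, fewer cells of a type and less RNA per cell cannot be told apart.

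**Figure D3:**
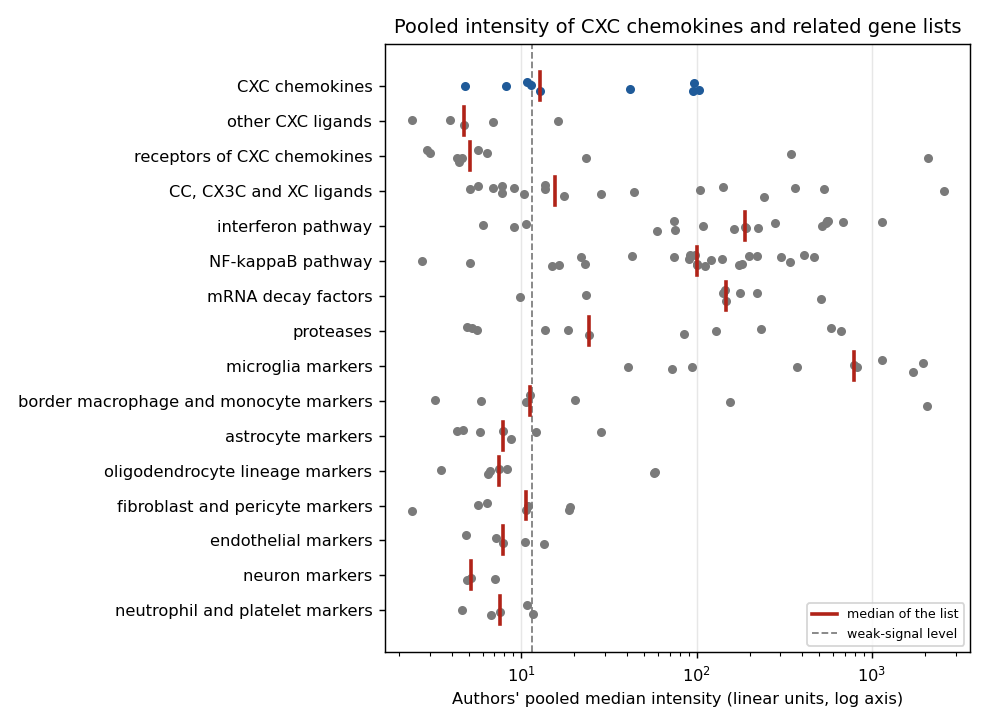
The authors' pooled median intensity, in linear units on a log axis, of CXC chemokine genes and 15 related lists, with a point for each gene that has a row of its own, a red bar for the list median and a dashed line for the weak-signal level. The CXC chemokines have a median of 12.7, against 788 for microglia markers and 5.10 for the receptors of CXC chemokines.

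In the gene annotation deposited with the rows, chemokine activity was given for all 9 genes with a row of their own and for 30 of 17618 annotated genes. The genes were chosen as CXC chemokines, so this share and those of related terms below are no finding. Immune response was given for all 8 whose process terms could be used, those of Cxcl12 not being used here, against 0.597% of annotated genes, and inflammatory response for 6 of the 8, without Cxcl14 and Pf4. Neutrophil chemotaxis was given for Cxcl1, Cxcl2 and Cxcl3 alone of the 8. KEGG pathways were given for 8 of the 9 and none for Cxcl3. Of the 8, Toll-like receptor signalling was assigned to Cxcl9 and Cxcl10, against 1.68% of annotated genes, and NOD-like receptor signalling to Cxcl1 and Cxcl2, against 0.896%. In the listed tissues of expressed sequence tags, brain was named for Cxcl12 and Cxcl14 only, 2 of the 9, against 75.8% of annotated genes. Spleen was named for 7 of the 9, against 52.6%. The number of listed tissues ran from 5 for Cxcl3 to 36 for Cxcl12, the gene with the lowest intensity here.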

How the data were processed

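RNA of 10 samples, 5 with TGFb1 and 5 without, was labelled for Affymetrix whole transcript arrays from 500 ng each, with RNA integrity numbers of 8.6 to 10 and a mean of 9.45. The submitters' processing notes name RMA, a method of background correction, quantile normalization and probe summary. Its version, the array model used for these cultures and the genome build are not given in the sources used here. Coordinates of probe sets are therefore left out. The deposited table of 28361 rows holds the authors' median intensity for each row, on a linear scale, and its header does not say over which arrays. That column alone was used. A further 10 columns of values per array have names that match no sample label and were used in no step. The authors' own comparison, 5 columns with a paired effect size, a log2 form, a paired effect, a CyberT p-value and an FDR, was not used, so no test was made and the planned fits were not run. The number of arrays limits the precision, which the pooled median does not show.

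Of the rows, 21041 name one symbol, 2247 several, 5061 none and 12 hold a date. For each symbol the row with the highest median led, which gave 18976 genes. All 10 genes of the family were named. Of the planned related lists, some genes are not reported here. From the lists, up to 6 genes each were named; the planned rule chose them by test results, so these were chosen after their values were seen. The members and lists were chosen with earlier results of these data known, and the weak-signal level, the 95th percentile of olfactory receptor genes, after seeing the data. Promoters are from RefSeq (GRCm38.p6), transcripts from GENCODE M21. Motif searches were tested on simulated sequences with planted sites. Python 3.11.15, numpy 2.4.6, pandas 2.3.3 and matplotlib 3.10.9 were used.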

Additional observations from a re-analysis of the deposited data

How the results depend on the processing

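The pooled medians carry no replicate error, so no difference between genes was tested. Without genes in the lowest quartile, those under an intensity of 6.19, the median intensity of the chemokine genes was 27.2, and with every row of a member, the shared Cxcl16 rows included, it was 41.7, against 12.7 as reported. The median gene was at 35.0 without the lowest quartile, against 15.8. With vomeronasal in place of olfactory receptor genes, an alternative chosen after seeing the data, 8 of 9 genes were above the weak-signal level in place of 5. That lower level, 6.75, is exceeded by most genes, since Gp9, at 6.74, lay above only 27.9% of all genes. The count of chemokine genes above the level was 4 without the lowest quartile, where 8 of them were left. The olfactory receptor genes in that quartile were left out too, which raised the level itself to 41.2, just under Cxcl2 at 41.7. That count is therefore no independent check. At the 99th percentile of olfactory receptor genes, 37.7, also chosen after seeing the data, the count was 4. Near that level, P2ry12, at 40.4, lay above 64.9% of all genes. Counted by rows and not by genes, 7 of 11 were above the weak-signal level, both shared Cxcl16 rows among them. Above the median gene there were 4 genes, and 4 without the lowest quartile. By rows, 6 of 11 were above it, again with both shared Cxcl16 rows. No paired analysis was possible because the columns of values per array have names that match no sample, and the authors' own paired comparison, which the table holds, was left out by choice. For these reasons the limma fits, other adjustments, centring and leaving out of pairs were not run.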
